A study of Rattus norvegicus with 10 samples.

Results

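The genes Tcf7l2, Lef1, Zic1, Prkcd and Slc17a6, all known as markers of the thalamus, were followed in the hippocampus of young rats. They were chosen by name, and every probe set annotated with 1 of these symbols alone was taken, which gave 10 of the 31042 probe sets and 5 of the 14217 named genes. The C-group was 5 male Wistar rats given solid chow for 8 days, and the P-group was 5 male Wistar rats given the same kind of feed as powder. Both groups started at 3 weeks of age after an acclimatization on powdered feed, were 4 weeks old at sampling according to the labels, and carried no genetic change or drug. The hippocampi were dissected by hand, and total RNA of each rat was hybridized to 1 Affymetrix rat array. The question was whether these genes rise and fall together over the 10 rats, as they would if pieces of thalamus had been carried over, and whether they differ between the diets.

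The thalamus lies directly beneath the hippocampus and relays sensory and motor signals to the cortex. Its excitatory neurons are specified by transcription factors that stay active after birth. TCF7L2 and LEF1 belong to the same family of high mobility group proteins, which bind beta-catenin and switch on genes of the canonical Wnt pathway. ZIC1 is a zinc finger transcription factor of thalamic, septal and cerebellar neurons that is also found in the meninges. PRKCD, the delta isoform of protein kinase C, marks sensory relay neurons of the thalamus, and SLC17A6, the vesicular glutamate transporter VGLUT2, loads glutamate into the vesicles of thalamic neurons. None of these genes is confined to the thalamus. Tcf7l2 is also active in the oligodendrocyte lineage, and Slc17a6 in neurons of the subiculum and retrosplenial cortex.

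The bases before a start site of Prkcd and Slc17a6 are shown because Prkcd and Slc17a6, both markers of thalamic relay neurons, followed different orders of rats in the values described here. They are 250 bases each, 5′ to 3′ on the gene's strand, from RefSeq (GRCr8). The Prkcd stretch is on the minus strand at chr16:5805840-5806089, before the start that the promoter table uses, and it lies inside the annotated gene, which reaches to position 5806122 of that chromosome. The stretch of Slc17a6 is on the plus strand at chr1:110348197-110348446. Capitals mark CTTTGA, the letters bound by TCF and LEF proteins.
Prkcd: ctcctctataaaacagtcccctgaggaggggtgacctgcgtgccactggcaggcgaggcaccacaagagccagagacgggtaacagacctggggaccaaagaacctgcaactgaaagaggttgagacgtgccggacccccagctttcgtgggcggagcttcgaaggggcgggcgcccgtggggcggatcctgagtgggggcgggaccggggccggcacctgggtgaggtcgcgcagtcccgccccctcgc
Slc17a6: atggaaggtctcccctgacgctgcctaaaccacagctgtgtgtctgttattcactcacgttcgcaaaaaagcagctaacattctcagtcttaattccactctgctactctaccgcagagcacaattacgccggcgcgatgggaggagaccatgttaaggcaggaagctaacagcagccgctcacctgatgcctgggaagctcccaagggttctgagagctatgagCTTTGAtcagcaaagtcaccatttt
The motif CTTTGA, searched on both strands, was found once in the Slc17a6 stretch, 25 bases before the start, and not in that of Prkcd. The same length of promoter held it in 13.9% of 33469 RefSeq entries. The letters CAGCAGG of ZIC proteins and TAATCC of OTX proteins were in neither stretch, and they were in 7.67% and 6.34% of all entries. These matches are descriptions of the letters in this window.

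The deposited values are log2 expression values from qFARMS, a factor model under which many probe sets come out nearly constant. Over the 10 rats, 2904 probe sets (9.36%) had a standard deviation (SD) above 0.01 and are called variable here, and the remaining 90.6% are called flat. A value is compared between rats only, since probe sets differ in brightness for reasons other than RNA amount. Of the defining markers of hippocampus, Prox1 of granule cells, Neurod6 of pyramidal cells and Wfs1 of CA1 ranged from 9.13 to 9.73, 9.82 to 10.72 and 7.63 to 8.83. Each varied between rats, but since brightness differs between probe sets these levels are no test of the tissue label. Rat C1 stood apart from the others: it held the highest or lowest value in 75.6% of the variable probe sets, against 7.44 to 20.6% for each other rat. Results that rest on C1 are given with and without it. P2 stood apart in pineal markers, with a mean 1.94 above that over all rats.

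Of the 5 genes, 4 had a variable probe set and Lef1 had none. Both Lef1 probe sets were flat, with SDs of 0.000168 and 0.000348 at means of 6.62 and 7.64. Tcf7l2 had 5 probe sets, of which 4 were flat in the same way, at means from 6.25 to 6.80, and the brightest one varied. Prkcd, Slc17a6 and Zic1 had 1 probe set each, and it varied. Thus 4 of the 10 probe sets (40%) were variable. The 6 flat ones spanned at most 0.00099 log2 units over the 10 rats so that rats could not be told apart by them.

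Tcf7l2 was low in C1 and, less so, in P1. Its variable probe set stood at 8.04, 8.79, 8.66, 8.92 and 8.77 in C1 to C5, against 8.37, 8.78, 8.79, 8.67 and 8.77 in P1 to P5. C1 was the lowest and P1 the second lowest, the other 8 rats lay within a narrow band, and the groups overlapped. It averaged 8.64 ± 0.35 in C-group rats against 8.68 ± 0.18 in P-group rats (SD, n = 5 each). The C-group minus P-group difference was -0.040 log2 units, with a standard error of 0.17 and a 95% interval from -0.43 to 0.34 (limma, adjusted p = 0.973). Without C1 the difference was 0.11, with the sign turned. In bulk tissue, fewer cells of a type and less RNA per cell cannot be told apart.

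Zic1 was high in 4 rats, 2 of each group. It stood at 6.91, 6.32, 6.37, 6.33 and 6.66 in C1 to C5, against 6.33, 6.59, 6.82, 6.26 and 6.47 in P1 to P5. C1, P3, C5 and P2 had the highest values, in this order, and the groups overlapped. It averaged 6.52 ± 0.26 in C-group rats against 6.49 ± 0.22 in P-group rats (SD, n = 5 each), a difference of 0.024 (standard error 0.15, 95% interval -0.31 to 0.36, limma adjusted p = 0.981). The difference was -0.074 without C1, -0.011 without C5, -0.016 without P1 and -0.033 without P4, so that its sign rested on single rats.

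Prkcd was high in the same 4 rats in the same order. It stood at 8.28, 7.73, 7.39, 7.59 and 8.15 in C1 to C5, against 7.58, 8.00, 8.22, 7.39 and 7.67 in P1 to P5. It had the widest spread of the 4 genes, with an SD of 0.34 over the 10 rats and a range of 0.88 log2 units (1.84-fold), and the groups overlapped. It averaged 7.83 ± 0.37 in C-group rats against 7.77 ± 0.33 in P-group rats (SD, n = 5 each). The difference was 0.056 (standard error 0.22, 95% interval -0.44 to 0.55, limma adjusted p = 0.970), and it was -0.057 without C1, -0.026 without C5 and -0.039 without P4.

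Slc17a6 followed another order of rats. It stood at 8.36, 8.56, 8.36, 8.40 and 8.61 in C1 to C5, against 8.59, 8.84, 8.68, 8.40 and 8.03 in P1 to P5. P2 and P3 were highest and P5 lowest, so that the 5 rats of the C-group lay inside the range of the P-group. It averaged 8.46 ± 0.12 in C-group rats against 8.51 ± 0.31 in P-group rats (SD, n = 5 each), a difference of -0.049 (standard error 0.14, 95% interval -0.38 to 0.28, limma adjusted p = 0.962). The difference was 0.034 without P2.

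**Figure D1:**
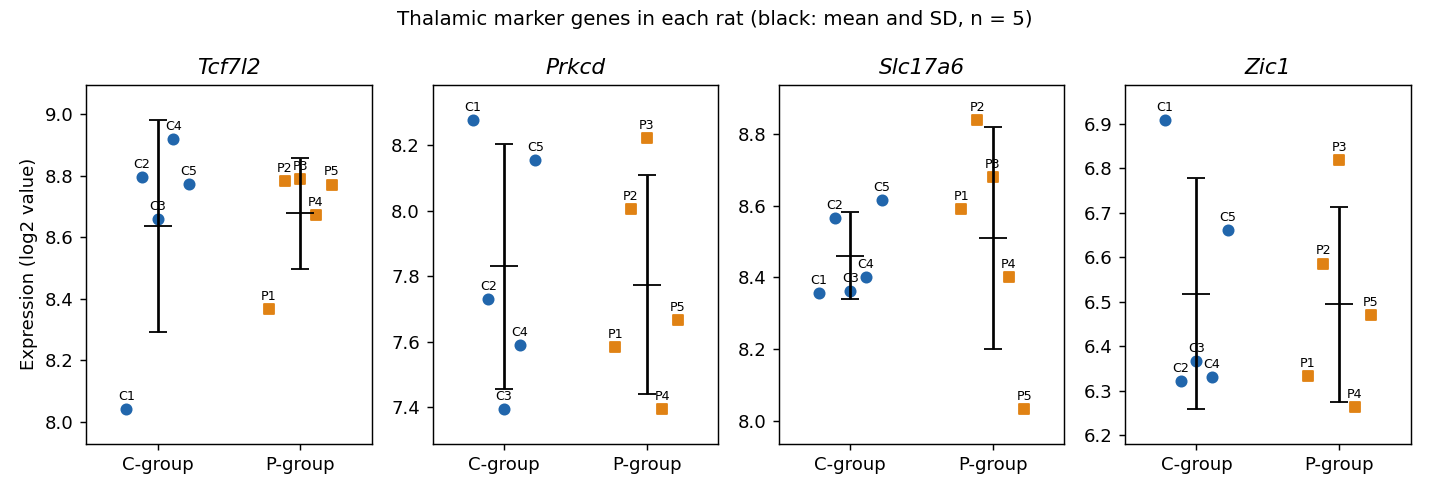
Log2 expression value of the variable probe set of Tcf7l2, Prkcd, Slc17a6 and Zic1 in each rat, with blue circles for the C-group and orange squares for the P-group. Black bars are the mean and SD of 5 rats, and each panel has its own vertical scale. The groups overlap in every panel, Tcf7l2 is lowest in C1 at 8.04, and Prkcd and Zic1 are both highest in C1, followed by P3.

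None of the 10 probe sets passed a test of the diets without pairing of rats; a paired form, given with the alternatives, called 2. With rank products, the method the paper names, 0 of 10 were called higher in the C-group at a false discovery rate (FDR) under 0.05, where 2% of all 31042 probe sets were, and 0 of 10 were called lower, where 0.416% were. The lowest FDR of a thalamic marker was 0.134, for Slc17a6 as lower. limma called 0 of 10 at an adjusted p under 0.05, as it did for 0% of all probe sets. At an unadjusted p under 0.05, limma passed 0 of 10, against 2.95% of all. In exact permutation tests (two-sided, unadjusted), Tcf7l2, Prkcd, Slc17a6 and Zic1 gave p = 0.825, 0.770, 0.770 and 0.889, where 5 rats against 5 can reach 0.00794. These values do not show that the diets left the genes alike, since the intervals reach 0.28 to 0.55 log2 units upward and 0.31 to 0.44 downward.

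Among the 6 pairs that the 4 variable genes form, only Prkcd and Zic1 moved closely together over the 10 rats. Their Pearson's r was 0.93 (permutation p = 0.00012, adjusted p = 0.00072 over the 6 pairs) and Spearman's rho 0.78 (permutation p = 0.00999, adjusted p = 0.0599). Without C1 and P3, the rats farthest from the Prkcd median, r was 0.89, and without C1 alone it was 0.92. Within groups r was 0.90 in the C-group and 0.98 in the P-group, as values of 5 rats each. So the pair rose and fell together in both diets and without the rat that stood apart. Of all variable probe sets, Zic1 was number 6 by r with Prkcd and Prkcd number 5 by r with Zic1, out of 2903. High values of r are frequent in these arrays, with a 95th percentile of 0.86 over all pairs of variable probe sets, and 1.51% of those pairs reached the r of Prkcd and Zic1.

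The other 5 pairs had r from -0.39 to 0.40, and none passed the permutation test. Tcf7l2 ran against Zic1 and Prkcd, at r = -0.39 and -0.25 (permutation p = 0.275 and 0.518, adjusted p = 0.550 and 0.673). Their rho was -0.22 and 0.15 (permutation p = 0.536 and 0.680, adjusted p = 0.734 for both). The negative signs rested on C1: without it r was 0.29 and 0.34 (permutation p = 0.450 and 0.399), and without C1 and P1, the 2 rats farthest from the Tcf7l2 median, 0.15 and 0.35. Slc17a6 and Tcf7l2 gave r = 0.14 and rho = 0.38 (permutation p = 0.673 and 0.281, adjusted p = 0.673 and 0.734). Their r was -0.060 without C1 and 0.14 without C1 and P1.

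Slc17a6 was nearer to Prkcd than to Zic1. With Prkcd it gave r = 0.40 and rho = 0.28 (permutation p = 0.254 and 0.429, adjusted p = 0.550 and 0.734), which became 0.59 without C1 (permutation p = 0.0874) and 0.54 without C1 and P3. With Zic1 it gave r = 0.20 and rho = 0.13 (permutation p = 0.571 and 0.734, adjusted p = 0.673 and 0.734), which became 0.43 without C1 (permutation p = 0.253) and 0.21 without P5 and P2. The 4 genes therefore did not follow a single order of rats. C5, P2 and P3 lay above the mean in all 4 genes, whereas C1 was highest in 2 of them and lowest in Tcf7l2.

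**Figure D2:**
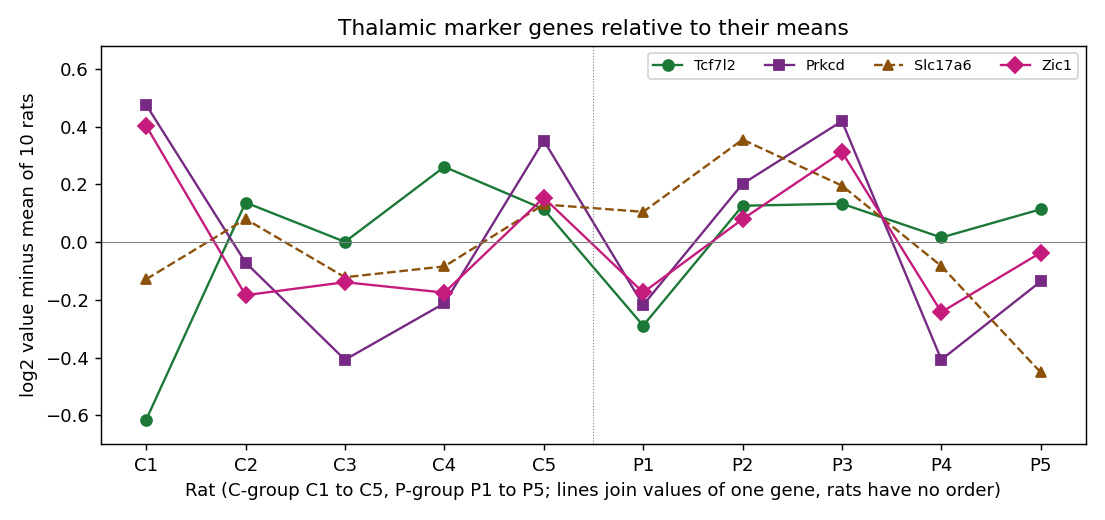
Log2 value of the 4 variable thalamic markers in each rat, minus the mean of that gene over the 10 rats. Lines join the values of a gene, with no order among rats, and the dotted line parts the C-group from the P-group. Prkcd and Zic1 run in parallel, and Tcf7l2 lies far below its mean in C1, where both are highest.

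**Figure D3:**
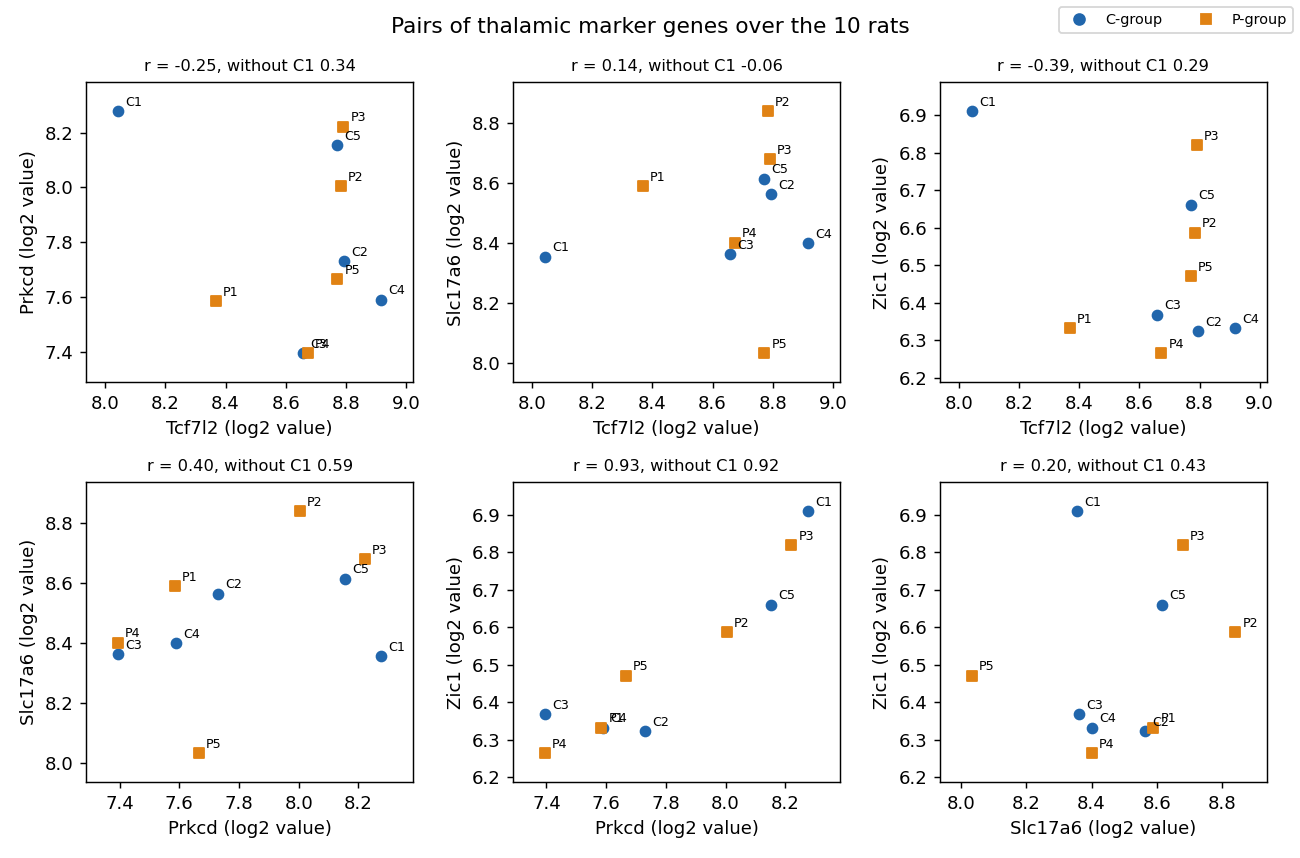
The 6 pairs of variable thalamic markers, with the log2 value of a gene on each axis and a point for each rat (blue circles for the C-group, orange squares for the P-group). Only Prkcd and Zic1 fall along a line (r = 0.93), and Tcf7l2 shows C1 away from the other rats.

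A wider list of thalamic genes shows how far other markers of the thalamus moved. Of 27 measured genes, 6 had a variable probe set, and the 21 flat ones included Gbx2, a homeobox gene of developing thalamus, Lhx9, Rora, Shox2 and the T-type calcium channel gene Cacna1g. Rank products called 0 of the 27, where 2% of all probe sets were called higher and 0.416% lower. The median difference of the 6 variable genes was -0.01, against 0.07 over all variable probe sets. Tnnt1, a troponin gene, was 7.41, 5.94, 6.30, 6.45 and 6.92 in C1 to C5, against 6.41, 6.52, 7.01, 6.14 and 6.97 in P1 to P5. It was highest in C1 and P3, as Zic1 and Prkcd were.

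The mean of these 6 genes went with Prkcd and Zic1, and not with Tcf7l2 or Slc17a6. Its r was 0.92 with Prkcd and 0.94 with Zic1 (permutation adjusted p = 0.0051 and 0.0048 over 60 combinations of gene and list; rho = 0.88 and 0.78, adjusted p = 0.0411 and 0.0643). Without C1 these were 0.89 and 0.91, and without C1 and P3 they were 0.84 and 0.86. The same mean gave r = -0.30 with Tcf7l2 (rho = 0.05, adjusted p = 0.655), which was 0.39 without C1, and r = 0.10 with Slc17a6 (rho = 0.05, adjusted p = 0.830).

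Single genes of the wider list behaved unequally. Zfhx3, a zinc finger homeobox gene, gave r = 0.94 with Zic1 and 0.87 with Prkcd, Tnnt1 0.88 and 0.75, and Zic4, which lies beside Zic1 in the genome of mammals, 0.66 and 0.73. Zic4 was highest in C5 and P3, at 7.87 in each, but only 7.17 in C1, and without C1 its r with Zic1 was 0.92. Ntng1, a netrin-G gene of thalamic axons, gave -0.04 with Zic1 and 0.04 with Prkcd, with its highest values in C1 and C2. Without C1 these were -0.59 and -0.32. Of the 6 genes, 6 had a positive r with Prkcd, 5 with Zic1, 3 with Slc17a6 and 2 with Tcf7l2. Without C1 it was 4 of the 6 for each of the 4 markers.

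The habenula, a small nucleus on top of the thalamus whose neurons also use TCF7L2, had 4 variable genes among 11 measured. Rank products called 0 of the 11, where 2% of all probe sets were called higher and 0.416% lower, and limma called none. The mean of the 4 variable genes gave r = 0.83 with Tcf7l2 (rho = 0.27, permutation adjusted p = 0.0732), but it was 0.36 without C1, which was lowest in both. Among them Slc5a7, the choline transporter gene, gave r = 0.89 with Tcf7l2, and 0.62 without C1. The others, Htr5b, Tac3 and Chrnb4, gave 0.71, 0.47 and 0.28, and without C1 -0.09, -0.07 and 0.12.

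The list of GABAergic thalamic markers had 5 variable genes of 13 measured, among them Otx2, Gad2, Dlx1 and Sst. Genes of GABAergic neurons are not confined to the thalamus, so this list does not single out thalamic cells. The mean of its 5 variable genes gave r = 0.94 with Prkcd and 0.91 with Zic1 (permutation adjusted p = 0.0012 and 0.00684). Otx2, a homeobox gene that is also a marker of choroid plexus and pineal gland, carried much of this: over the 4 other genes r was 0.64 with Prkcd and 0.70 with Zic1, and 0.49 and 0.42 without C1. With Tcf7l2 these 4 genes gave r = -0.81, and -0.30 without C1. Otx2 and Gad2, a gene of GABA synthesis, were called higher in the C-group by rank products (FDR 0.016 and 0.0364). They are 15.4% of the 13 genes, beside 2% of all probe sets, most of them flat, and limma called none.

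Genes of other tissues moved with Prkcd and Zic1 as well. The choroid plexus, which makes cerebrospinal fluid and lies in the ventricles next to the hippocampus, had 19 variable genes of 23 measured, with Ttr, Sostdc1, Mfrp and F5 the most variable. Rank products called 18 of the 23 higher (78.3%, beside 2% of all probe sets) and 0 lower in the C-group, and limma called none. The shares are of unlike units, since each gene was taken by a variable probe set where it had one. The mean over the 19 lay between -0.81 and 1.27 in the C-group and between -0.93 and 0.89 in the P-group, relative to all rats. It gave r = 0.80 with Prkcd and 0.76 with Zic1 (permutation adjusted p = 0.0635 and 0.0719), with rho of 0.84 and 0.72 (adjusted p = 0.0411 and 0.106). Without C1 the 2 values of r were 0.73 and 0.65, and without C1 and C5 they were 0.64 and 0.56. Without C2 both relations passed, at r = 0.86 and 0.92 (permutation adjusted p = 0.0305 and 0.0117), as they did without P2, at 0.90 and 0.82 (permutation adjusted p = 0.00804 and 0.0322). With Slc17a6 r was 0.04 and with Tcf7l2 -0.24.

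The rats did not line up in every case. C2 had a high choroid plexus mean of 0.73 but the second lowest Zic1, at 6.32, and a Prkcd of 7.73, near the mean of all rats, and P2 had a low mean of -0.61 but high Prkcd and Zic1, at 8.00 and 6.59. With the choroid plexus mean removed from both genes by regression, a setting chosen after seeing the data, Prkcd and Zic1 gave r = 0.84. Of all variable probe sets, 7.09% had an r with the choroid plexus mean at least as high as that of Prkcd and 8.64% at least as high as that of Zic1. For the mean of the wider thalamic list these shares were 0.413% and 0.172%, and for the meningeal mean 3.93% and 13.3%. Whether choroid plexus tissue contributed to the values of Prkcd and Zic1 was not tested.

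Meningeal fibroblast genes had 8 variable genes of 19 measured, among them the collagen genes Col1a2 and Col3a1, Fmod and Ogn. Rank products called 6 of the 19 higher (31.6%, beside 2% of all probe sets, most of them flat), and limma called none. Their mean gave r = 0.76 with Prkcd, 0.61 with Slc17a6 and 0.61 with Zic1 (rho = 0.76, 0.59 and 0.49, permutation adjusted p = 0.0719, 0.183 and 0.191). With that mean removed, Prkcd and Zic1 gave r = 0.92, whereas Slc17a6 gave -0.12 with Prkcd and -0.27 with Zic1. Microglia genes, with 4 variable of 11 measured, gave r = 0.84 with Zic1 (permutation adjusted p = 0.0051, r = 0.72 without C1) and 0.67 with Prkcd (permutation adjusted p = 0.0937), while the defining genes Cx3cr1, Csf1r, Aif1 and Tyrobp were flat. Of 14 measured pineal genes, 12 were variable. Rank products called 1 of the 14 higher and 6 lower in the C-group, and limma called none. Of all probe sets, most of them flat, 2% were called higher and 0.416% lower. Pineal genes, with Pde6g, Mpp4 and Pdc high in P2 alone, gave r = 0.30 with Prkcd, 0.21 with Zic1 and 0.57 with Slc17a6, which was also highest in P2. Without P2 and C1 these were 0.87, 0.73 and 0.50.

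Slc17a6 went with markers of neighboring cortex and subiculum, as Prkcd and Zic1 did in part once C1 was left out. Over 10 variable genes of 16 measured, among them Nts, Tshz2, Rprm and Ccn2, its r with the mean was 0.79 (rho = 0.84, permutation adjusted p = 0.0322), 0.86 without C1 and 0.69 without C1 and P5. The call was lost without C3, C5, P1, P3, P4 or P5, with an adjusted p of up to 0.105, while r stayed between 0.72 and 0.86. The same mean gave r = 0.15 with Prkcd and -0.11 with Zic1 over all rats. Without C1 these were 0.64 and 0.41, and without C1 and P5 they were 0.81 and 0.60. With Tcf7l2 it gave 0.54, and 0.10 without C1. Single genes of the list behaved unequally. Rprm, Tshz2 and Ccn2 gave r = 0.74, 0.72 and 0.65 with Slc17a6, but Nts, the most variable, gave 0.18. The remaining variable genes of the list ran from -0.06 to 0.79. Tshz2 and Nts were called higher in the C-group by rank products (FDR 0.0262 and 0.0326), although the C-group minus P-group difference of Nts was -0.22. They are 12.5% of the 16 genes, beside 2% of all probe sets, most of them flat, and limma called none.

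Markers of hippocampal fields, with 16 variable genes of 27 measured, gave r = -0.62, -0.34 and -0.45 with Prkcd, Slc17a6 and Zic1 and 0.42 with Tcf7l2 (permutation adjusted p = 0.183 to 0.554). Without C1 these were -0.48, -0.55, -0.17 and -0.082. Neurod6 was the only one called by rank products, as lower in the C-group (FDR 0.00385), with a low value of 9.82 in C2. Of all probe sets 0.416% were called lower, and limma called none of these markers. Oligodendrocyte markers had 11 variable genes of 19 measured and 0 called, where rank products called 2% of all probe sets higher and 0.416% lower. Their mean gave r = 0.46 with Tcf7l2 (permutation adjusted p = 0.380), and 0.72 without C1. Mag and Mobp, genes of myelin proteins, gave r = 0.80 and 0.70 with Tcf7l2.

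**Figure D4:**
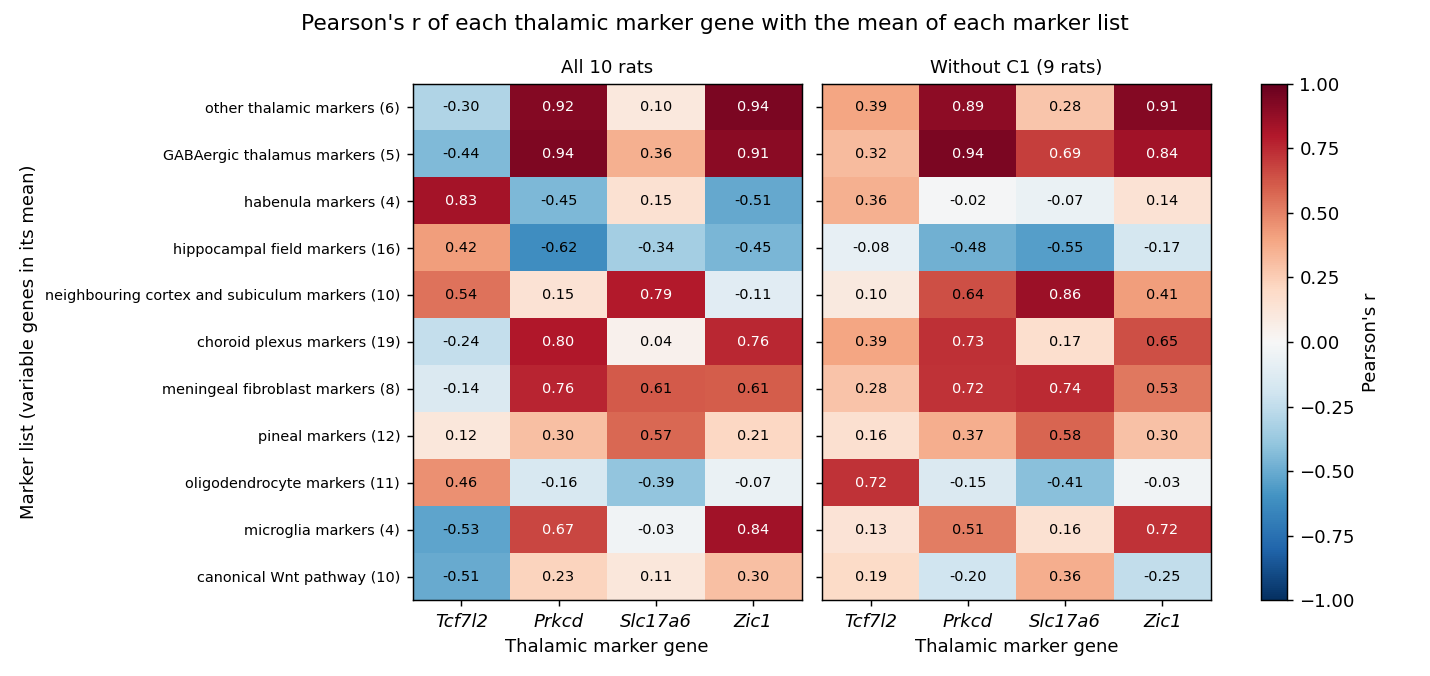
Pearson's r of each variable thalamic marker (columns) with the mean of each marker list (rows, with the number of variable genes in brackets), over all 10 rats on the left and without C1 on the right. Red is positive and blue negative. Prkcd and Zic1 are red for thalamic, choroid plexus and meningeal lists on both sides, Slc17a6 is reddest for neighboring cortex and subiculum, and many values of Tcf7l2 change sign without C1.

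The pathway and families of these markers were described by the same tests. Of 54 other genes of the canonical Wnt pathway, 10 were variable, and rank products called 3 higher in the C-group and 0 lower: Sfrp1, a secreted Wnt inhibitor, Axin2, a scaffold of the beta-catenin destruction complex and a Wnt target, and the kinase gene Csnk1a1 (FDR 0.0125, 0.0282 and 0.0353). These 3 are 5.56% of the 54 genes, beside 2% of all probe sets called higher. The shares are of unlike units, since each gene was taken by a variable probe set where it had one. Axin2 gave r = -0.56 with Tcf7l2, and -0.36 without C1. The differences of Sfrp1, Axin2 and Csnk1a1 were 0.31, 0.21 and 0.18, and limma passed none of them (adjusted p = 0.927). The genes of beta-catenin, Ctnnb1, and of the related factors Tcf7 and Tcf7l1 were flat. Sfrp1 gave r = 0.87 with Prkcd and was highest in C1, C5, P3 and C2, the 4 rats with the highest choroid plexus mean. None of 7 other protein kinase C genes was called, where rank products called 2% of all probe sets higher and 0.416% lower. Of 2 variable ones Prkcb gave r = 0.79 with Tcf7l2 and -0.51 with Prkcd, which were 0.21 and -0.17 without C1. The mean of Prkcb and Prkce gave r = -0.79 with Zic1 (permutation adjusted p = 0.0355, r = -0.64 without C1). By rank it did not pass (rho = -0.54, permutation adjusted p = 0.324). Singly, Prkcb gave r = -0.56 with Zic1 and Prkce -0.00015, so the relation was that of the mean only. Among vesicular transporters the variable genes were Slc32a1 of GABAergic neurons and Slc18a2 of monoaminergic neurons, whose mean gave r = 0.86 with Zic1 and 0.83 with Prkcd (permutation adjusted p = 0.0163 and 0.0322), and 0.81 and 0.78 without C1. Slc17a7, the vesicular glutamate transporter of hippocampal neurons, was flat, so that it could not be set beside Slc17a6.

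The genes whose values were most like each marker over the 10 rats were ranked by r, with the 5 thalamic markers themselves left out and each gene taken by its probe set of highest r. The 5 genes nearest to Tcf7l2 among 1785 were Zfp292, Tjp1, Usp2, Washc2c and Mgll, with r from 0.93 to 0.95, and all 5 were lowest in C1. Without C1 their r lay between 0.76 and 0.83. Tjp1 encodes a tight junction scaffold, Usp2 a deubiquitinase and Mgll the lipase that breaks down the endocannabinoid 2-arachidonoylglycerol.

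Apart from Zic1, the genes nearest to Prkcd were C13h1orf115, Dpt, Prdm16, Ctsc and Lhfpl6 (r from 0.92 to 0.97), and apart from Prkcd, those nearest to Zic1 were Slc18a2, Prdm16, Zfhx3, C13h1orf115 and Csap1 (r from 0.92 to 0.96). All of them were highest in C1, and without C1 their r lay between 0.90 and 0.96 for Prkcd and between 0.86 and 0.96 for Zic1. Prdm16 is a transcription factor gene, Dpt encodes the matrix protein dermatopontin, Ctsc the protease cathepsin C, and Slc18a2 the vesicular monoamine transporter. C13h1orf115 and Prdm16 stood in both sets of 5.

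The genes nearest to Slc17a6 were Hlf, Ephx4, Nxph3, Fap and Col3a1, with r from 0.81 to 0.86 over all rats and from 0.80 to 0.90 without C1. Hlf encodes a transcription factor of the circadian PAR family, Nxph3 a neurexophilin, and Fap and Col3a1 proteins of fibroblasts. Hlf, Nxph3, Fap and Col3a1 were lowest in P5, as Slc17a6 was. No gene was shared with the sets of the other 3 markers.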

How the data were processed

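Total RNA of 10 hippocampi was hybridized to Affymetrix rat genome arrays. The deposited log2 values came from qFARMS, which the authors ran with quantile normalization in R. No genome build is named. The 57 control probe sets were left out, and no column belonged to other samples. Symbols came from the platform annotation, and 20826 probe sets carried 1 symbol. A gene was represented by its variable probe set (SD above 0.01) of highest mean, otherwise by its probe set of highest mean, except in the ranking by likeness, which took the probe set of highest r.

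Differences are C-group minus P-group. Rank products was run unpaired on all 31042 probe sets (25 differences, 100 permutations within arrays, FDR under 0.05), and limma 3.58.1 in R 4.3.3 (lmFit, eBayes, Benjamini-Hochberg, 0.05) on the same values. Both were tested on simulated data with known changes, where rank products also called unchanged probe sets. Exact tests used all 252 divisions of the rats. Correlations used 100000 resamples, two-sided, with Benjamini-Hochberg over the 6 pairs or the 60 combinations with 15 lists (Python 3.11.15, numpy 2.4.6, scipy 1.17.1). The mean of a list was taken over its variable genes, without the 5 thalamic markers. Some lists share genes.

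Named are the 5 markers, the 5 genes nearest to each variable one, up to 4 most variable genes of a list, and Prox1, Neurod6 and Wfs1. Genes called in a list are named too, but not all of those in the choroid plexus, meningeal, pineal and endothelial lists. Flat genes were named after their values were seen. The markers, lists and motifs were chosen with earlier results of these data known. The alternatives changed the normalization, the filter, the pairing, the random draw, the variance model, the correlation, the probe set and the rats used. Each array was taken as 1 rat, so that the p-values of limma, the exact tests and the correlations rest on the spread between these rats. The FDR of rank products comes from permuting probe sets within arrays and does not divide by that spread. The labels name no batch, and the number of arrays limits the precision.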

Additional observations from a re-analysis of the deposited data

Results flagged for a closer look

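In 3 of 38 groups of 5 rats examined, 1 rat lay far from the other 4, measured as its gap to the nearest rat over the range of the group; about 5% of groups do so by chance. Tcf7l2 was low in P1, at 8.37 against a mean of 8.75 over P2 to P5 (gap 0.723 of the range). Zic4, the only variable gene of the Zic family besides Zic1, was high in C5 (0.765 of the range), at 0.61 above its mean over all rats, against -0.19 on average in C1 to C4. The pineal marker mean was high in P2 (0.957 of the range), at 1.94 above the mean of all rats, against -0.24 on average in the others of its group.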

How the results depend on the processing

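limma called none of the 10 probe sets in any setting. Rank products called none in 15 of 16 alternatives. With the replicate block it called 2, Prkcd as higher and Slc17a6 as lower in the C-group. The rats share only a number: same-numbered rats correlated from -0.39 to 0.48, above 0.1 in 3 of 5 pairs, and 5 of 10 rats correlated best with their own number. The block raised the calls over all probe sets to 912 higher and 338 lower, against 620 and 129 without it. With variable probe sets alone these were 9 and 0, with the brighter part of the array 157 and 37, and without C1 61 and 164. With 1 rat left out, the differences ran from -0.12 to 0.11 for Tcf7l2, -0.057 to 0.17 for Prkcd, -0.17 to 0.034 for Slc17a6 and -0.074 to 0.11 for Zic1, so their signs are not settled. Prkcd and Zic1 kept r between 0.92 and 0.96 with 1 rat left out, and 1 pair passed in all settings but Spearman's rho, where 0 did. Tcf7l2 ran from -0.38 to 0.34 with Prkcd, -0.060 to 0.35 with Slc17a6, -0.56 to 0.29 with Zic1 and -0.48 to 0.39 with the other thalamic markers, and Slc17a6 with those from -0.033 to 0.28. Tcf7l2 and Prkcd gave 0.15 by Spearman's rho. With the meningeal mean removed, a setting added after seeing the data, Slc17a6 gave -0.12 with Prkcd and -0.27 with Zic1. Of the 60 combinations of gene and list, 9 passed, 14 with group means removed, and 6 to 16 with 1 rat left out, with 16 without C2 and 14 without P2. The cause of these changes was not tested.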
